A study of Homo sapiens with 2 samples.

Results

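TXNIP, the other alpha-arrestin genes ARRDC1 to ARRDC4, the glucose-sensing factor genes MLX, MLXIP and MLXIPL, and the thioredoxin gene TXN were examined in HK-2 cells, which descend from human proximal tubule epithelium and were made to grow without limit by papillomavirus genes. These 9 genes were chosen from 58302 in the deposited count tables by matching Ensembl identifiers to their symbols, and all 9 were found. The set was picked because TXNIP is an abundant gene with fewer counts in the library labelled Ad-Bmal1, so its values below are a description and not a test. Both groups carried an adenoviral vector for 24 h, and uninfected cells were not analysed here. The vector of the group labelled Ad-GFP encoded green fluorescent protein. That of the group labelled Ad-Bmal1 encoded Bmal1, which with CLOCK drives the circadian clock. Each group had 1 library from polyadenylated RNA, and without replicates no difference was tested or given a p-value. Each value describes these 2 libraries, not the 2 vectors. In every pair of values below, Ad-GFP comes first and Ad-Bmal1 second.

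TXNIP binds reduced thioredoxin and holds it inactive, and it helps to take the glucose transporter SLC2A1 off the cell surface. It belongs to the alpha-arrestins, adaptor proteins whose PPxY motifs recruit NEDD4-family ubiquitin ligases to membrane cargo. MLXIP (MondoA) and MLXIPL (ChREBP) are basic helix-loop-helix zipper factors that sense phosphorylated glucose, pair with MLX and bind carbohydrate response elements, which are built from E-box-like sequences. TXNIP and ARRDC4 are their best known targets. The E-box CACGTG is also the core sequence bound by BMAL1 and CLOCK.

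The sequence before the start of TXNIP is shown because it holds the element through which glucose is known to act, and those of ARRDC4 and MLX because they were the 2 members with a CACGTG. They are the RefSeq sequences (GRCh38.p14), written 5′ to 3′ on the gene's own strand. Starts here are those of RefSeq. The gene coordinates given below are from GENCODE v29, and for TXNIP and MLX they reach into the 250 bases before the RefSeq start. All of the 250 bases before the start are given for TXNIP (chr1:145996580-145996829, minus strand) and ARRDC4 (chr15:97960453-97960702, plus strand), and for MLX the 70 bases at chr17:42566990-42567059 (plus strand). Capitals mark the motifs searched.
TXNIP: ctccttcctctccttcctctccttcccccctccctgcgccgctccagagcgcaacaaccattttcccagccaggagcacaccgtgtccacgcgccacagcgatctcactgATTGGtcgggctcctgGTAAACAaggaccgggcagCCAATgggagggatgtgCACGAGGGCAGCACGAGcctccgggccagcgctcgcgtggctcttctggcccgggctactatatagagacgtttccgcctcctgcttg
ARRDC4: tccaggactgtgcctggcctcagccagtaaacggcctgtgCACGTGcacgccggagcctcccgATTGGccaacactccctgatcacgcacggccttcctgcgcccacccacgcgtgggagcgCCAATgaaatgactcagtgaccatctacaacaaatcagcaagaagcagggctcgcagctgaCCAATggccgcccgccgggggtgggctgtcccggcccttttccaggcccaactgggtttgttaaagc
MLX: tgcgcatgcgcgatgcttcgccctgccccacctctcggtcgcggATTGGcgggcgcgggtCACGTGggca

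The motifs were searched on both strands of the 250 bases before each of 35116 RefSeq starts, of which 12 belong to the 9 members. They were the E-box CACGTG, the forkhead sequence GTAAACA, the CCAAT box (ATTGG on the other strand), and a paired motif made of CACGNG, 5 bases of any kind and CACGNG again. A CACGTG also meets CACGNG, so the E-box and the paired motif can overlap, but no member held both. TXNIP held the paired motif as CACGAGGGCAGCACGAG at positions -88 to -72 from its start, and 16 of the 35116 windows (0.0456%) held it. The glucose element of TXNIP was known beforehand, so this match and its rarity are a description and not a test. Pairs of another form or spacing were not searched, so a window without this pattern may still hold one. TXNIP also had GTAAACA at -124 to -118, and a CCAAT box on each side of that. GTAAACA was in 2 of the 12 member windows, the other being that of the second start of ARRDC3 (-29 to -23), and in 2.98% of all windows. The window of the second TXNIP start held none of the motifs. The 2 windows with CACGTG were those of ARRDC4, at -210 to -205, and MLX, at -50 to -45, against 6.34% of all windows. CCAAT was in 7 of the 12 member windows and in 11240 (32%) of all windows. A match describes the letters only, since no binding was measured.

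The libraries held 20032652 and 20051735 counts. BMAL1, which the Ad-Bmal1 vector encodes, had 204 and 133 counts and thus a ratio of 0.667 (0.532 to 0.834), against the label. Transcripts of the vector and of the cell's own gene cannot be told apart in these counts. Every direction below is therefore that of a library as labelled. Of 13 proximal tubule markers 4 were measured. The tubule transport genes LRP2, SLC22A6, SLC22A8 and SLC5A12 were at 0 in both libraries, which allows up to 0.148 and 0.151 CPM, the count relative to the scaled library total. Among 6 epithelial markers the keratin genes KRT8, KRT18 and KRT19 were abundant. EPCAM had 842 and 746 counts and KRT7 328 and 266, while CDH1 had 1 and 4 and was not measured. Markers of other cells were mostly sparse, with PTPRC, CD3E, VWF and KDR at 0 in both. However, the leukocyte marker CSF1R had 433 and 407 counts, and the endothelial marker TIE1 had 28 and 7. The 8 fibroblast markers summed to 79.7 and 102 CPM, of which COL1A1 made up 63.4 and 84.8. Among 6 hepatocyte markers ALB had 9 and 165 counts, APOA1 0 and 15, TTR 0 and 9, and APOB 0 and 4. FGB was at 21 in both, and SERPINA1, with 5999 and 5011 counts, made up most of the summed 297 and 264 CPM. The part of other cell types in the results below was not tested. In bulk RNA, fewer cells of a type and less RNA per cell cannot be told apart. Longer transcripts had higher ratios, with a median log2 ratio of -0.08 for transcripts up to 2026 bases and 0.13 for those above 4999, and ratios with that trend removed are given for the members and for some other genes.

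TXNIP (ENSG00000265972, chromosome 1, 145992435 to 145996600, minus strand, GRCh38) had 2501 and 1037 counts. Its levels were 123 and 52.3 CPM, 2.36-fold lower in the second library (95% interval 2.19 to 2.54; ratio 0.424, 0.394 to 0.456). All intervals reflect counting error and not the spread between cultures. No other annotated gene lies within 5000 bases of TXNIP, so its counts are not shared with an overlapping gene. With the transcript length trend removed the ratio was 0.429, against 0.424 as measured.

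**Figure D1:**
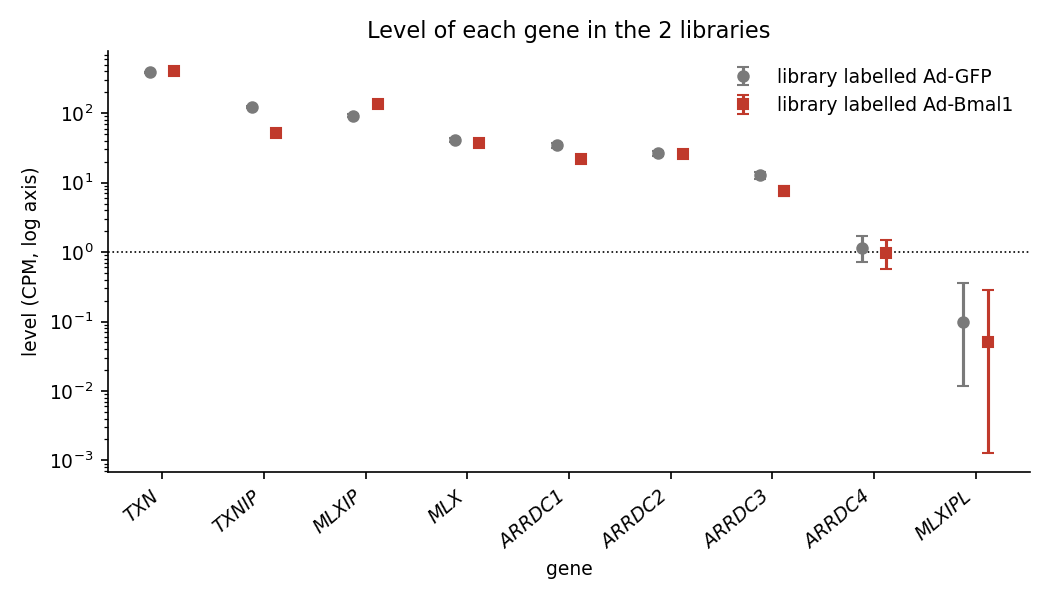
Level of each of the 9 genes in CPM on a log axis, for the library labelled Ad-GFP (grey circles) and the library labelled Ad-Bmal1 (red squares), with 95% counting intervals. TXNIP was at 123 and 52.3 CPM and MLXIP at 92.3 and 137, while MLXIPL lay below the dotted line at 1 CPM in both.

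TXNIP was the single member to meet the size rule, which asked for at least 1 CPM in a library, a difference of at least 2-fold and an interval that excluded 1. Among all 13231 genes measured at 1 CPM, 1.74% were lower by that rule and 1.13% higher, and no member was higher. Of the 2265 genes at or above the mean level of TXNIP, 2 had a lower ratio. These were the growth factor gene HDGF at 0.365 and the protein-crosslinking enzyme gene TGM2 at 0.402, which are named after their values were seen. Over the 2 libraries, the 5 protein-coding genes of similar level whose log2 ratio was nearest to that of TXNIP (-1.24) were CD83 (-1.20), LIMD2 (-1.16), MMP1 (-1.32), MACROH2A1 (-1.11) and ARL6IP1 (-1.09). They were taken from 2309 candidates with an Ad-GFP level within 2-fold of that of TXNIP, and likeness over 2 libraries is a weak measure.

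**Figure D2:**
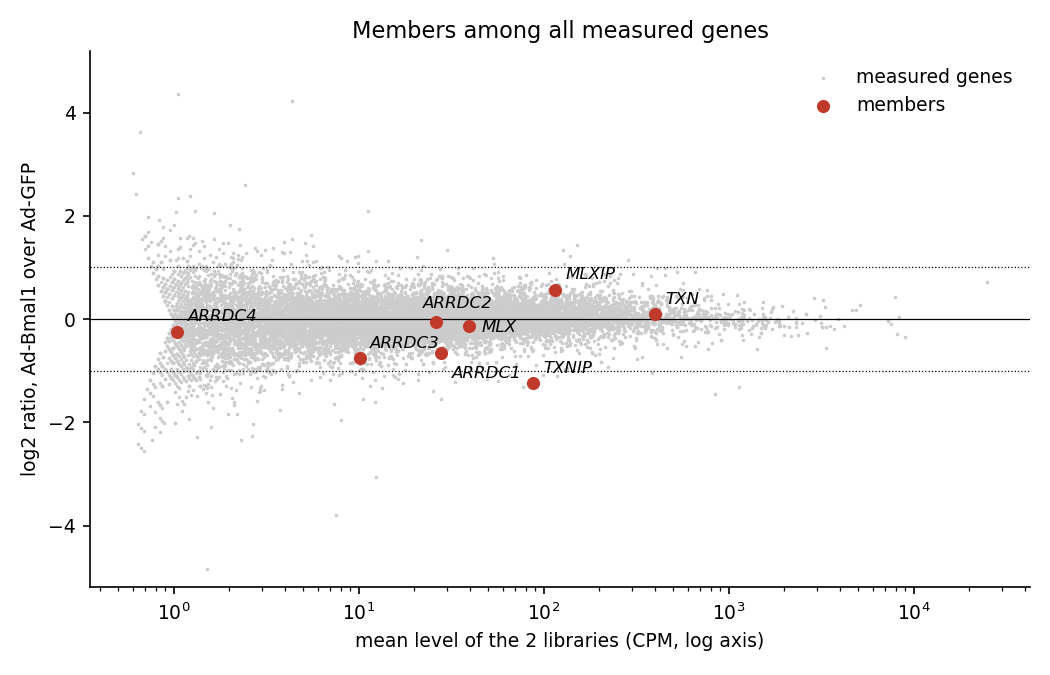
Log2 ratio, Ad-Bmal1 over Ad-GFP, against mean level in CPM (log axis) for the 13231 measured genes (grey) and the 8 measured members (red). Dotted lines mark 2-fold differences, and TXNIP at -1.24 is the single member beyond them.

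Among the other alpha-arrestins ARRDC1 and ARRDC3 were also lower in the library labelled Ad-Bmal1, while ARRDC2 was close to level. ARRDC3, an adaptor known for the turnover of beta-adrenergic receptors and of the integrin ITGB4, had 258 and 149 counts and was 1.69-fold lower (1.38 to 2.08). It lies on chromosome 5 from 91368724 to 91383359. ARRDC1, which drives the budding of small vesicles from the plasma membrane, had 695 and 432 counts and was 1.57-fold lower (1.39 to 1.78). It lies on chromosome 9 from 137605654 to 137615360. With the length trend removed their ratios were 0.580 and 0.678. ARRDC2, a less studied relative, had 539 and 506 counts, a ratio of 0.961 whose interval (0.849 to 1.09) included 1.

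ARRDC4, which like TXNIP is a target of the MLX factors, was near the limit of measurement. It had 23 and 19 counts, or 1.13 and 0.959 CPM, and was measured through the library labelled Ad-GFP alone. Its ratio of 0.845 had an interval of 0.435 to 1.62, so a difference as large as that of ARRDC1 could not be detected at this depth.

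Count ratios between 2 genes of the same library do not depend on scaling. Since TXNIP was chosen for being lower, ratios to it repeat that choice and are given as a description. Relative to TXNIP, the counts of ARRDC1 were 1.5 times as high in the library labelled Ad-Bmal1 as in the other (1.30 to 1.73). For ARRDC3 this value was 1.39 (1.12 to 1.73) and for ARRDC2 2.26 (1.96 to 2.61). For ARRDC4, measured through Ad-GFP alone, it was 1.99 (1.02 to 3.84).

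TXNIP made up 62.3% of the 4016 counts of the 5 alpha-arrestin genes in the library labelled Ad-GFP (Wilson 95% interval 60.8 to 63.8). In the library labelled Ad-Bmal1 it made up 48.4% of 2143 (46.3 to 50.5). With fewer TXNIP counts in the total, the shares of the 4 other genes were all larger there, although none of them had more counts. The share of ARRDC2 was 13.4% and 23.6%, and that of ARRDC1 17.3% and 20.2%. That of ARRDC3 was 6.42% (5.71 to 7.23) and 6.95% (5.95 to 8.11). For ARRDC4 it was 0.573% (0.382 to 0.858) and 0.887% (0.568 to 1.38). For ARRDC3 and ARRDC4 the intervals of the 2 libraries overlapped. The summed counts of the 5 genes had a ratio of 0.546 (0.518 to 0.576), and those of the 4 without TXNIP a ratio of 0.747 (0.691 to 0.808).

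**Figure D3:**
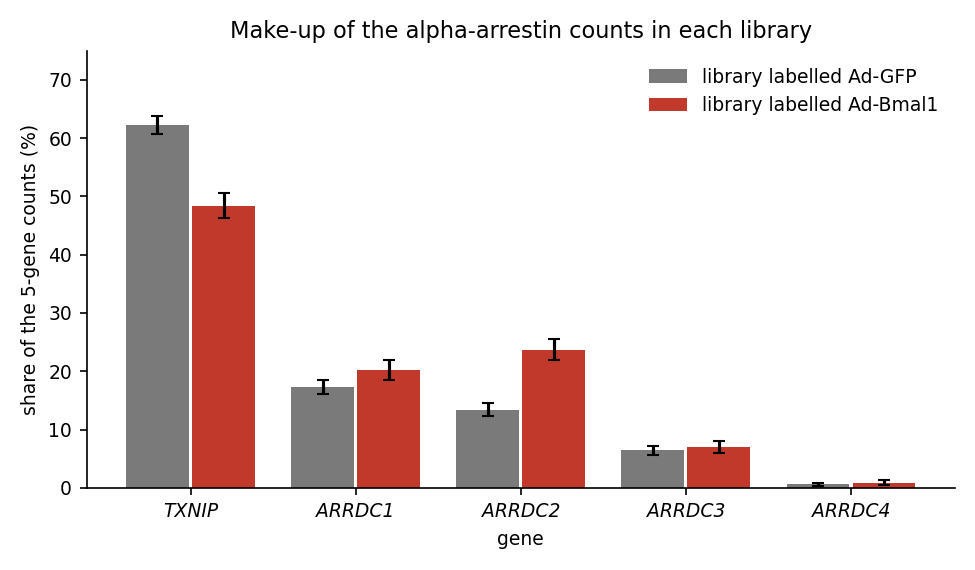
Share of the summed counts of TXNIP and ARRDC1 to ARRDC4 taken by each gene, in percent, for the library labelled Ad-GFP (grey) and the library labelled Ad-Bmal1 (red), with Wilson 95% intervals. The share of TXNIP was 62.3% and 48.4%, and that of ARRDC2 13.4% and 23.6%.

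Counting without strand could mix some of these genes with their antisense neighbours, since the strand setting is not given in the sources used here. ARRDC1-AS1 overlaps the end of ARRDC1 by 29 bases and had 596 and 455 counts, a ratio of 0.781 (0.690 to 0.884), on the same side of 1 as ARRDC1. ARRDC3-AS1, which overlaps ARRDC3 by 3011 bases, had 5 and 1 counts.

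Of the glucose-sensing factors MLXIP was higher in the library labelled Ad-Bmal1, MLX was close to level and MLXIPL was barely detected. MLXIP (chromosome 12, 122078722 to 122147347) had 1872 and 2718 counts, 1.49-fold higher (1.40 to 1.58). Its longest coding transcript is 8427 bases, and with the length trend removed the ratio was 1.31 (1.24 to 1.39). MLX, the shared partner (chromosome 17, 42567068 to 42573239), had 834 and 745 counts, a ratio of 0.914 (0.827 to 1.01). MLXIPL, known mainly from liver, fat and gut, had 2 and 1 counts, under the floor of 3, so no ratio is given.

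The counts of MLXIP relative to MLX were 1.63 times as high in the library labelled Ad-Bmal1 as in the other (1.45 to 1.83). PSMC3IP lies on the opposite strand and overlaps the end of MLX by 925 bases. It had 243 and 305 counts and so lay above 1 (1.28, 1.08 to 1.53). The summed counts of MLX and PSMC3IP had a ratio of 0.998 (0.915 to 1.09). That sum does not show how many counts came from the overlap. The direction of MLX is uncertain because its own interval included 1.

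TXN, the cytosolic thioredoxin gene that TXNIP acts on, was the most abundant member in both libraries. It had 7821 and 8146 counts, a ratio of 1.07 (1.03 to 1.10; chromosome 9, 110243811 to 110256640), or 1.13 (1.10 to 1.17) with the length trend removed. Its 7 annotated TXNP pseudogenes held 3 and 4 counts, too few to bear on that ratio. TXNIP counts relative to those of TXN were lower in the library labelled Ad-Bmal1, at 0.398 times the value in the other (0.368 to 0.431).

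**Figure D4:**
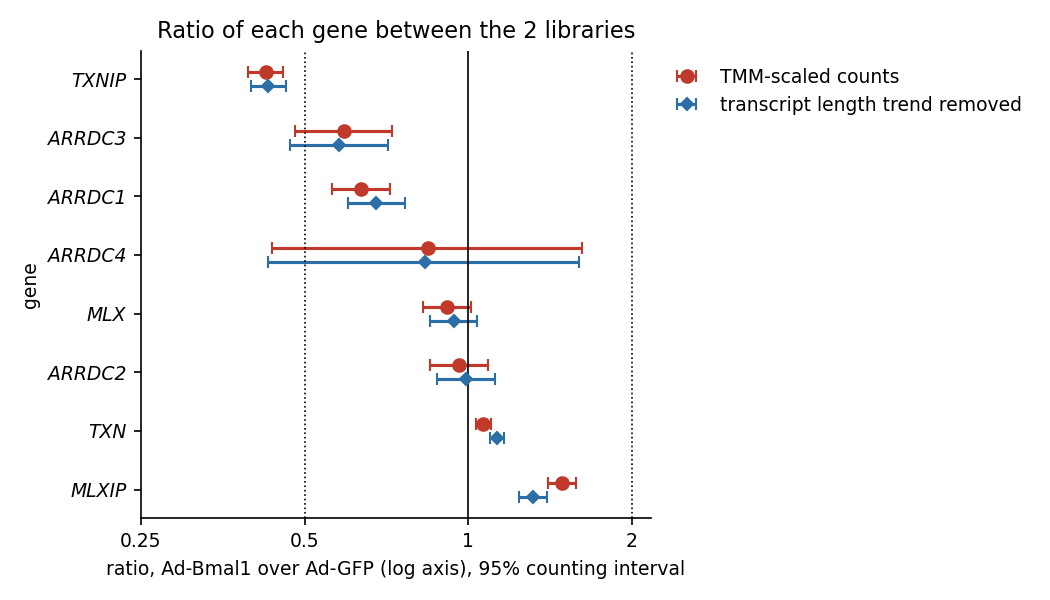
Ratio, Ad-Bmal1 over Ad-GFP, on a log axis for the 8 measured members, from scaled counts (red circles) and with the transcript length trend removed (blue diamonds), with 95% counting intervals. TXNIP is the single gene whose interval lies wholly below 0.5, and the intervals of ARRDC4, MLX and ARRDC2 cross 1.

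Of the 8 measured members 3 had an interval below 1 (TXNIP, ARRDC1 and ARRDC3) and 2 an interval above 1 (MLXIP and TXN). Among all measured genes 21.6% had an interval below 1 and 23.8% above, and since TXNIP chose the set nothing is read from the members' count. The members' median log2 ratio was -0.19, beside 0.0031 over all measured genes. At a size of 1.5-fold TXNIP, ARRDC1 and ARRDC3 were lower, against 4.90% of all measured genes, and 0 members were higher, against 4.41%. ARRDC1 missed that size with the length trend removed (0.678).

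To compare levels between genes, CPM was divided by the length in kilobases of the longest annotated coding transcript. On that scale the order in the library labelled Ad-GFP was TXN (444), TXNIP (42.2), ARRDC1 (21.6), MLX (15.9), MLXIP (11.0), ARRDC2 (10.5), ARRDC3 (3.04), ARRDC4 (0.279) and MLXIPL (0.030). By this length MLXIP and ARRDC2 did not differ beyond counting error there, with a ratio of 1.04 (0.946 to 1.15). Per kilobase of all annotated exons they were at 6.64 and 5.73, and MLX (9.66) was above ARRDC1 (8.97). In the library labelled Ad-Bmal1 the level of TXNIP by the longest coding transcript was 17.9, that of MLXIP 16.3, MLX 14.5 and ARRDC1 13.7. These distances depend on the length used: per kilobase of all annotated exons the same levels were 14.4, 9.87, 8.83 and 5.71. By the longest coding transcript, the levels of MLX and ARRDC1 did not differ beyond counting error, with a ratio of 1.06 (0.938 to 1.19). No interval was computed for the other length, at which these levels were further apart. TXN was 10.5 times as high as TXNIP per kilobase in the library labelled Ad-GFP and 26.4 times in the other.

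Beside the members, 10 related lists with 120 genes were examined, 3 of which are described in the closing section. For each, counts of intervals below and above 1 are to be read beside the 21.6% and 23.8% of all measured genes, and no list was tested. These lists were chosen with earlier results of the same libraries known.

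Genes of the ubiquitin ligases that alpha-arrestins recruit lay on both sides of 1. Of the 9 NEDD4-family genes 5 had an interval above 1 and 2 below, with a median log2 ratio of 0.37. WWP1 had 157 and 228 counts (ratio 1.49, 1.21 to 1.83), and NEDD4L, known for the turnover of the epithelial sodium channel, 1518 and 1984 (1.34, 1.25 to 1.43). SMURF2, a regulator of TGF-beta signalling, went the other way with a ratio of 0.741 (0.624 to 0.880). These are long transcripts, and with the length trend removed 3 intervals lay above 1 and 2 below, the median was 0.23 and NEDD4L had a ratio of 1.18.

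Cargo of the alpha-arrestins and budding partners of ARRDC1 were split, with 4 intervals below 1 and 3 above among 11 genes. SLC2A1, the main glucose transporter of most cultured cells and cargo of TXNIP, had 15772 and 10806 counts, a ratio of 0.701 (0.684 to 0.718). The receptor gene NOTCH1 had a ratio of 1.33 (1.23 to 1.44), or 1.16 with the length trend removed. Among 9 other arrestins and arrestin-fold genes 6 were measured, with 3 intervals below 1 and 1 above, or 0 above with the length trend removed. VPS26B, a retromer subunit, had 169 and 122 counts (0.739, 0.580 to 0.938), and ARRB2, the beta-arrestin that desensitises receptors, 1363 and 1158 (0.869, 0.803 to 0.941). The alpha-arrestin ARRDC5 was at 0 in both libraries.

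The other factors of the MLX and MAX network had a median log2 ratio of 0.0053 over 9 measured genes, with 3 intervals below 1 and 2 above. MYC, the most abundant, had 7110 and 7375 counts (1.06, 1.03 to 1.10). MXD3, a partner of MAX that represses transcription, had a ratio of 0.766 (0.690 to 0.851). MGA, a MAX partner with a very long transcript, had 75 and 161 counts, 2.20-fold higher (1.66 to 2.93), and met the size rule. Removing the length trend left 1.85, outside it.

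Known targets of MLXIP and MLXIPL outside the members did not share a direction. Of 23 listed genes 15 were measured, 6 with an interval below 1 and 5 above, and the median log2 ratio was -0.0089. KHK, the fructose-phosphorylating enzyme gene, had 96 and 46 counts (0.490, 0.337 to 0.704) and met the size rule, which it missed at 0.509 with the length trend removed. SCD, which desaturates fatty acids, had 9235 and 16890 counts (1.87, 1.82 to 1.92), and LDHA, lactate dehydrogenase, 45531 and 39813 (0.895, 0.883 to 0.907). Named after their values were seen, the fat synthesis genes ACACA (1.76), FASN (1.45) and ACLY (1.34) lay above 1. With the length trend removed they were at 1.53, 1.28 and 1.31. In the same list the intervals of ACACB (0.994, 0.838 to 1.18), ELOVL6 (1.15, 0.829 to 1.59) and MID1IP1 (0.991, 0.917 to 1.07) included 1. Named in the same way, the glycolytic regulator PFKFB3 (0.760) and hexokinase HK2 (0.654) lay below 1.

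Genes of glucose entry also lay on both sides of 1, with 4 intervals below 1 and 3 above among 10 measured of 16. HK2, which traps glucose in the cell by phosphorylation, had 2110 and 1348 counts (0.654, 0.610 to 0.700). HKDC1, another hexokinase-family gene, had 4767 and 6778 (1.45, 1.40 to 1.51). SLC2A1 and HK2 each belong to 2 of these lists.

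In the thioredoxin system outside TXN, 10 of 21 genes had an interval below 1 and 4 above, with a median log2 ratio of -0.08. With the length trend removed 10 intervals lay below 1 and 7 above, and the median was again -0.08. TXNRD1, the cytosolic reductase that recharges thioredoxin, had 13371 and 9762 counts (0.747, 0.728 to 0.767). TXNRD3, a reductase known from testis, had 90 and 56 (0.637, 0.448 to 0.899). PRDX1, a peroxidase that draws electrons from thioredoxin, was the most abundant with 24932 and 21642 counts (0.888, 0.872 to 0.905). TXN itself lay on the other side of 1 from all 3 reductase genes, as TXNRD2 had a ratio of 0.820 (0.761 to 0.885).

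**Figure D5:**
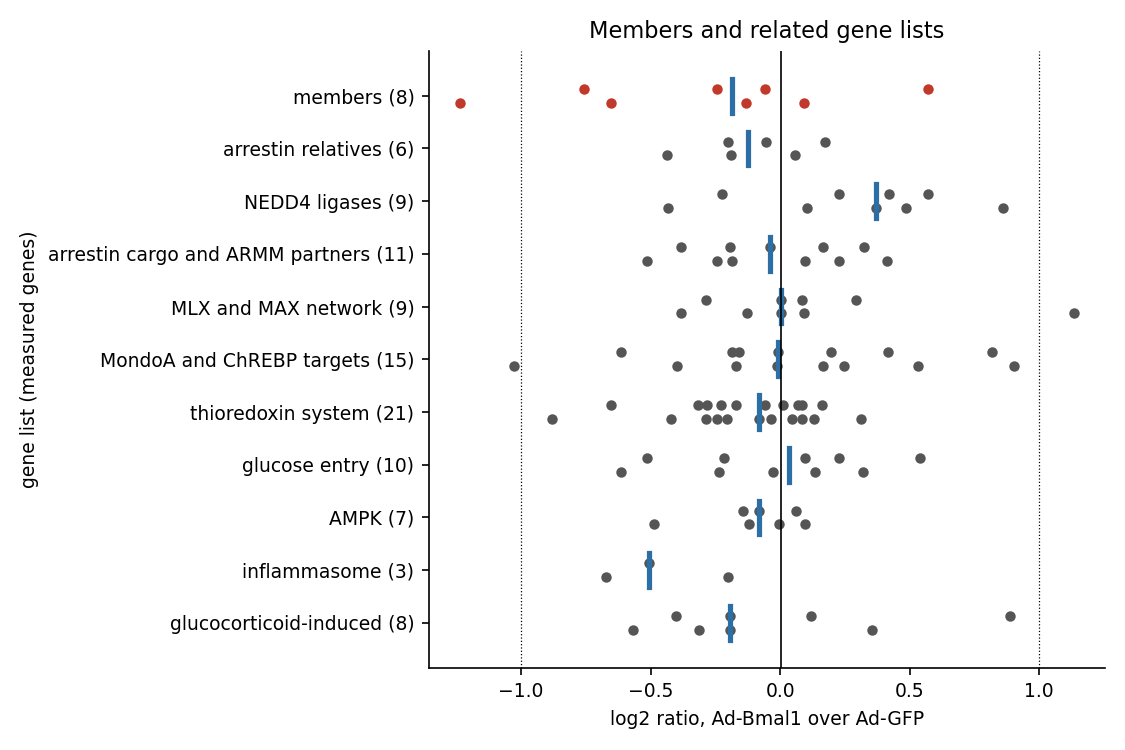
Log2 ratio, Ad-Bmal1 over Ad-GFP, of each measured gene (points) in the members (red) and in 10 related lists (grey), with list medians as blue bars and the median of all measured genes as a black line. Medians ran from -0.51 for 3 inflammasome genes to 0.37 for 9 NEDD4-family genes, with the members at -0.19. The dotted lines mark 2-fold, and ARMM stands for vesicles budded by ARRDC1.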

How the data were processed

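RNA sequencing of 2 libraries, 1 per group, was analysed. The submitters' processing notes name HISAT2 and the builds GRCh38 and hg38. Which program counted reads, with which strand setting and gene models, is not given in the sources used here. The deposited values are raw counts per Ensembl gene. There were 0 unused columns.

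TMM factors from edgeR 4.0.16 (R 4.3.3) were 1.01 for Ad-GFP and 0.988 for Ad-Bmal1. Further steps used Python 3.11.15, scipy 1.17.1 and statsmodels 0.14.6. With no residual degrees of freedom no test could be fitted. Ratios carry exact 95% conditional binomial (Clopper-Pearson) intervals, ratios between genes exact conditional odds-ratio intervals. No molecular identifiers are recorded, so PCR copies could make these too narrow. At this depth 1 CPM was 20.3 and 19.8 counts. Gene coordinates and lengths are from GENCODE v29, which held 99.5% of the identifiers, while the windows searched for motifs are from RefSeq. The length trend was a lowess fit (fraction 0.3). The steps were tested on simulated counts.

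Members and lists were chosen with earlier results of these data known. Named genes are all members and, per list, the 2 largest ratios with at least 100 counts and an interval off 1, and the most abundant gene. Any other gene was named after its values were seen.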

Additional observations from a re-analysis of the deposited data

How the results depend on the processing

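The ratio of TXNIP lay between 0.414 and 0.429 under 4 other scalings (total counts, DESeq2 size factors, upper quartile, and totals that leave out mitochondrial genes and the 20 most abundant ones), removal of the length trend, thinning and a prior count of 2, and no member ratio crossed 1 under these. TXNIP was the single member lower by the size rule under each setting but 2: at 1.5-fold 3 members were lower, and at 4-fold 0. Under total counts, DESeq2 size factors and totals without the most abundant genes, 4 members had an interval below 1. Per kilobase of all annotated exons, TXNIP was at 10.1% of TXN in the library labelled Ad-GFP, against 9.50% by the longest coding transcript. There 2 members, ARRDC1 and MLX, swapped ranks. Some small list medians changed sign. That of the MLX and MAX network was -0.029 under total counts, -0.015 with DESeq2 size factors, -0.014 without the most abundant genes and -0.063 at a minimum of 10 CPM. That of arrestin cargo was 0.035 with the length trend removed, that of glucose entry -0.12 at 10 CPM, and that of the MLXIP and MLXIPL targets 0.18 with no filter. Why a list's sign changed was not tested. No paired analysis was possible because each group had 1 library, and for the same reason no library could be left out.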

Other observations

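Genes that glucocorticoid is known to induce, as it does TXNIP, had a median log2 ratio of -0.19 over 8 measured genes, with 4 intervals below 1 and 2 above. The clock gene PER1 had 490 and 886 counts (Ad-GFP, then Ad-Bmal1), a ratio of 1.85 (1.65 to 2.07). SGK1, a kinase gene that regulates sodium transport, had 4325 and 2853 (0.675, 0.644 to 0.708), and ERRFI1, a feedback inhibitor of the EGF receptor, 5315 and 3931 (0.757, 0.726 to 0.789).

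AMP-activated kinase phosphorylates TXNIP and so marks it for turnover. Of the 7 measured genes for its subunits and its upstream kinase, 2 had an interval below 1 and 0 above. The regulatory subunit gene PRKAG1 had 889 and 620 counts (0.714, 0.643 to 0.792) and PRKAG2 1024 and 907 (0.906, 0.828 to 0.992). STK11, which encodes that upstream kinase, LKB1, had 3659 and 3727 (1.04, 0.995 to 1.09). Of 6 genes of the NLRP3 inflammasome, to which TXNIP has been linked, 3 were measured, 2 with an interval below 1 and 0 above. NLRP3 and IL1B had at most 1 count per library and CASP1 had 0. PYCARD, the adaptor ASC, had 259 and 159 counts (0.628, 0.512 to 0.768), and GSDMD, the pore-forming gasdermin D, 1092 and 752 (0.705, 0.641 to 0.774). The third measured gene, the cytokine IL18, had 294 and 250 (0.870, 0.732 to 1.03).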
